A study of Mus musculus with 22 samples.

Results

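RING1B peaks of embryonic stem cells (ESC) that overlapped neither an ESC PCGF6 peak nor a RING1B peak of wild-type (WT) crypts were examined for their genes, their strength and the mark H2AK119ub1 in crypts. They numbered 1858 of 5974 ESC RING1B peaks (31.1%), in a series whose 16 peak lists held 190797 peaks. A region was kept when it shared no base with the ESC PCGF6 list, the AhCre WT RING1B list or the Villin WT RING1B list. The regions were thus chosen by the deposited ESC RING1B, ESC PCGF6 and WT crypt RING1B peak calls. The ESC score, the absence of ESC PCGF6 and the absence of WT crypt RING1B are properties of the choice and are given only as a description.

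RING1B is the ubiquitin ligase of Polycomb repressive complex PRC1, which places a single ubiquitin on histone H2A (the mark H2AK119ub1) at silent developmental genes. PCGF6 belongs to a variant form of PRC1 that is guided to promoters by sequence-specific factors such as MGA, MAX and E2F6, and is known for keeping germline genes silent in ESC. Other PRC1 forms carry other PCGF proteins, and canonical PRC1 is recruited through the H3K27me3 mark of PRC2. In the intestine, crypts are the pits of the epithelium that hold the stem cells and their dividing progeny.

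The groups were as follows. H2AK119ub1, RING1B and PCGF6 were profiled in small intestinal crypts of AhCre mice with induced loss of Pcgf6 (knockout, KO) and of AhCre WT mice. H2AK119ub1, RING1B, CTCF and RAD21 were profiled in crypts of Villin KO and of Villin WT mice. RING1B and PCGF6 were profiled in WT E14 ESC, an established mouse line. AhCre is induced by beta-naphthoflavone and the Villin Cre by tamoxifen, both of which remove the gene from adult intestinal epithelium rather than throughout life. The design text, written for RNA collection, gives male C57BL/6 mice of 8 to 12 weeks and 7 days after induction, and gives no age, sex or time for the ChIP samples themselves. H2AK119ub1 samples had 5% Drosophila S2 chromatin added. The labels name no pooling of mice. Each group had 1 library, so no difference has a replicate check and no test between groups was possible. The series held 22 samples, of which 6 were inputs without a list.

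Each list gives positions and a score per peak, the authors' −log10 of a p or q value, with 10 as the lowest score. Scores grow with sequencing depth, which is unknown, so they are compared only within a list. Where a list has no peak, the signal did not reach that score, which does not show that the protein or mark was absent. The 4 H2AK119ub1 lists differed in length, with 16039 peaks in AhCre KO, 13175 in AhCre WT, 5492 in Villin KO and 6219 in Villin WT crypts. One library stood apart. The AhCre KO H2AK119ub1 list held 1950 peaks on chromosome X (12.2% of the list), against 29 (0.220%) in AhCre WT. The Villin KO list had 2.44% of its peaks on X and the Villin WT list 2.81%. The main shares that rest on the AhCre KO list are therefore also given without chromosome X. Peak lists measure no expression, so tissue identity could not be checked by marker levels. All 39 Hox genes had an ESC RING1B peak, and the ESC lists were used as their titles and antibody tags name them, since 1 description line exchanges the names RING1B and PCGF6. Among marker genes, 0 of 14 pluripotency genes, 2 of 15 intestinal epithelial genes (Dclk1 and Neurod1) and 0 of 8 mesenchymal and endothelial genes had one of the regions. Any ESC RING1B peak was at only 2, 6 and 2 of these genes. Of all protein-coding genes 4.42% had a region, and of those with any ESC RING1B peak 24.8%. Counts this small do not tell cell types apart.

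The strongest regions included some with and some without crypt H2AK119ub1, and promoters of both kinds are shown here because the results turn on that split. For each kind these are the 2 genes with the highest ESC RING1B score whose own promoter lay inside the region. Sequences run from 250 bases before to 50 bases after the RefSeq start on GRCm38.p6 (mm10), 5′ to 3′ on the gene's strand, with CpG dinucleotides in capitals. Pax1 (chr2:147364744-147365043, plus strand) and Gata5 (chr2:180334630-180334929, minus strand) had H2AK119ub1 in no crypt list. Nbl1 (chr4:139092921-139093220, minus strand) and Erfl (chr7:24944722-24945021, minus strand) had it in all 4.
Pax1: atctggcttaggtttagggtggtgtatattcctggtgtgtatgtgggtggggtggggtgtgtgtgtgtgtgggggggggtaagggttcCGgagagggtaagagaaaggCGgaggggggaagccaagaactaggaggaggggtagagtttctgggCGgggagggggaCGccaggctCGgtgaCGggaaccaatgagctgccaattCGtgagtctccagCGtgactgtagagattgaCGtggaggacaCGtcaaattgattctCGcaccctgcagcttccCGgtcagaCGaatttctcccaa
Gata5: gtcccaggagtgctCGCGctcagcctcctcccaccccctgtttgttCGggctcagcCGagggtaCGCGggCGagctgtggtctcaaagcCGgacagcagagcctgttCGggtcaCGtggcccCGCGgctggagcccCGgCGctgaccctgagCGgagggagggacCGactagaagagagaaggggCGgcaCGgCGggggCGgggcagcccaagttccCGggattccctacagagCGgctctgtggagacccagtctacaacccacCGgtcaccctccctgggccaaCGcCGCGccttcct
Nbl1: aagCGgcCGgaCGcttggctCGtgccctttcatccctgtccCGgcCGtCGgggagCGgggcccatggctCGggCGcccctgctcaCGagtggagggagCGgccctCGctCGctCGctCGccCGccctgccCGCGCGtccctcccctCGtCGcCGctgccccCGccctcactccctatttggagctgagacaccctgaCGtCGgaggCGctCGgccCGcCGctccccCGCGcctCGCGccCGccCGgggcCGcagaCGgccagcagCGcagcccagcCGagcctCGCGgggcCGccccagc
Erfl: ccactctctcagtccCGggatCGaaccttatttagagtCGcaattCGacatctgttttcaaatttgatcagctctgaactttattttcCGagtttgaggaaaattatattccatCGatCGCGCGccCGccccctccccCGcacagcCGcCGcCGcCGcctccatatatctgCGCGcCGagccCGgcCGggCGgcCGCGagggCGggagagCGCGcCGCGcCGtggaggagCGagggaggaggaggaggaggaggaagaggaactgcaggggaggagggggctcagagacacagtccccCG
The Pax1 promoter held 13 CpG in 300 bases at 57.3% GC and the Gata5 promoter 26 at 69.7%. The Nbl1 promoter held 43 CpG at 78.3% GC and the Erfl promoter 31 at 62.3%. In this group of 4, both marked promoters held more CpG than both unmarked ones.

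The regions were weaker and narrower than the other ESC RING1B peaks. Their median score was 19 (interquartile range 13.0 to 34.6), and 977 of 1858 (52.6%) scored under 20. The median score was 35.3 for the 748 PCGF6-free peaks that overlapped WT crypt RING1B. It was 30.5 for the 1785 peaks with ESC PCGF6 but no WT crypt RING1B, and 67.9 for the 1583 with both. Median widths were 1061 bp for the regions, against 1630, 1296 and 2087 bp for those 3 classes in the same order. Even so, 103 regions scored 100 or more, and the range reached 378. The regions made up 53.0% of the weakest decile of ESC RING1B peaks and 4.01% of the strongest. They lay a median of 102 kb from the nearest WT crypt RING1B peak and 47.5 kb from the nearest ESC PCGF6 peak. At the edge of the rule, the 3 closest regions lay 21, 31 and 52 bp from a listed peak, and the smallest overlaps that kept a peak out were 20 and 118 bp.

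**Figure D1:**
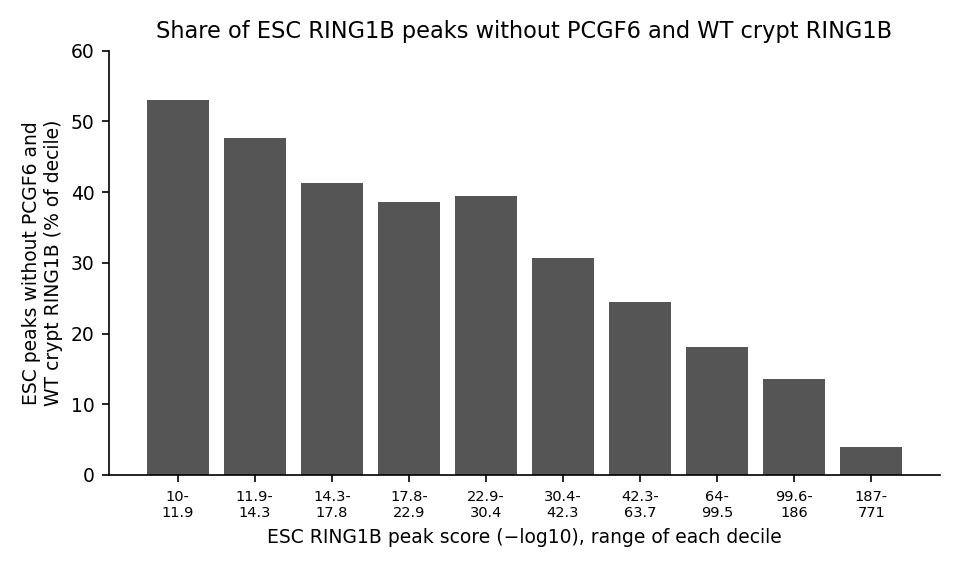
Share of ESC RING1B peaks that had no ESC PCGF6 and no WT crypt RING1B (y axis, % of the peaks in a decile) by ESC RING1B score (x axis, −log10, range of each decile). Bars are 1 library's peaks with no replicate error, and run from 53.0% in the weakest to 4.01% in the strongest decile.

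The regions were spread over promoters, gene bodies and intergenic sequence. A protein-coding RefSeq promoter was overlapped by 572 regions (30.8%, 95% interval 28.7 to 32.9), against 34.4%, 45.3% and 56.2% of the 3 other classes in the order above. Within 1 kb of an end of a protein-coding gene lay 935 regions (50.3%), a further 583 (31.4%) lay inside a gene and 340 (18.3%) outside genes. Intervals here and below are exact Clopper-Pearson intervals over peaks. They cover counting error only, and neighbouring peaks can share a gene or an H2AK119ub1 peak. Chromosome X had 70 regions among its 128 ESC RING1B peaks (54.7%), and chromosome 11 had 89 among 503 (17.7%).

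H2AK119ub1 was present at a minority of the regions in every crypt list. In AhCre crypts it overlapped 742 regions in KO (39.9%, 37.7 to 42.2) and 632 in WT (34%, 31.9 to 36.2), against 49.9% and 46% of all ESC RING1B peaks. In Villin crypts it overlapped 355 regions in KO (19.1%, 17.3 to 21.0) and 384 in WT (20.7%, 18.8 to 22.6), against 31.7% and 36.5% of all ESC RING1B peaks. Thus the share lay below that background in all 4 lists, and the background holds the peaks with WT crypt RING1B that the rule removed. Ends of protein-coding genes at large had the mark less often still, at 17.7%, 16.0%, 8.85% and 10.4% in the same list order. With each list shortened to the length of the shortest, its 5492 strongest peaks, the shares were 23.2% in AhCre KO, 20.7% in AhCre WT, 19.1% in Villin KO and 18.4% in Villin WT. The gap between the lines was smaller at this length, but AhCre KO (21.3 to 25.2) stayed above Villin KO (17.3 to 21.0) and Villin WT (16.6 to 20.2). The interval of AhCre WT (18.9 to 22.6) overlapped those of both Villin lists. The part of list length in the gap was not tested. Without chromosome X the shares were 39.7% in AhCre KO, 35.2% in AhCre WT, 19.1% in Villin KO and 20.5% in Villin WT.

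Among the 4 classes, the regions had the mark less often than both classes with WT crypt RING1B and more often than the other class without it. PCGF6-free peaks with WT crypt RING1B had H2AK119ub1 at 81.8% in AhCre KO, 78.2% in AhCre WT, 60.4% in Villin KO and 69.0% in Villin WT. Peaks with both ESC PCGF6 and WT crypt RING1B had it at 70.4%, 68.0%, 52.5% and 60.3% in the same list order. Peaks with ESC PCGF6 but no WT crypt RING1B had it at 28.9%, 25.5%, 14.4% and 18.3% in that order. Those classes differ in ESC score, and the comparison was repeated with each class weighted to the score quintiles of the regions. Then the PCGF6-free class with crypt RING1B stood at 78.0%, 74.2%, 53.8% and 63.8%, the class with both at 52.6%, 50.6%, 35% and 42.2%, and the class with ESC PCGF6 alone at 24.4%, 21.4%, 11.3% and 14.8%. With this weighting the regions exceeded the ESC PCGF6 peaks without crypt RING1B by 15.5, 12.6, 7.8 and 5.9 percentage points. Scores still differed within the top quintile, where the median was 70.4 for the regions and 90.2 for that class. The regions also lay nearer WT crypt RING1B than that class (median 102 against 152 kb), and the weighting did not balance distance. With 20 score bins the excess was 16.2, 13.2, 8.21 and 6.41 points, and without chromosome X it was 15.7, 13.5, 7.71 and 5.66 points. No test of these differences was made, because each list is 1 library.

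**Figure D2:**
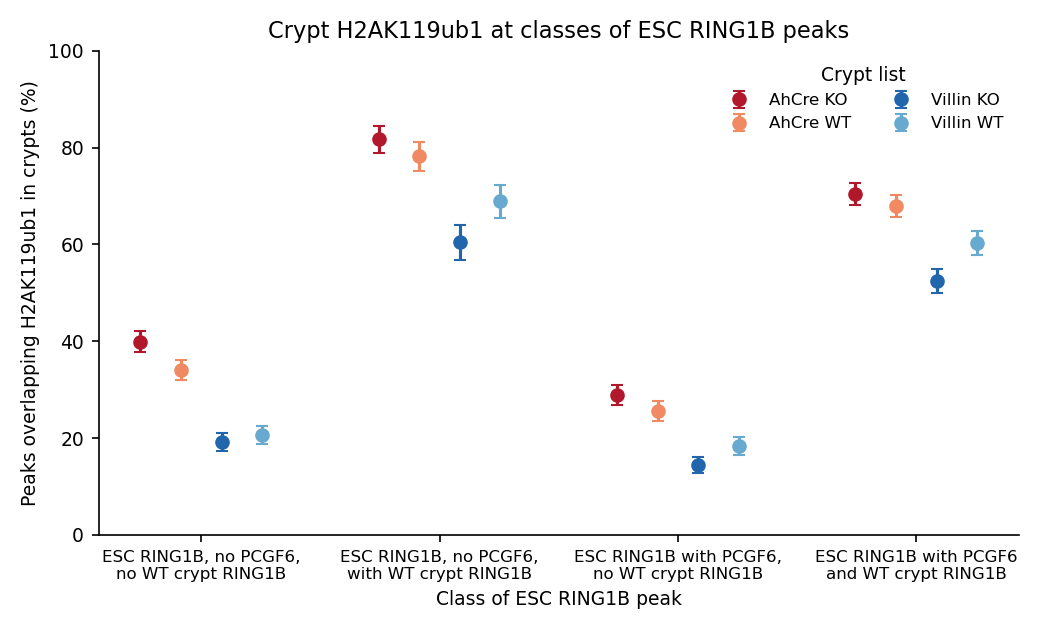
Share of ESC RING1B peaks that overlapped a crypt H2AK119ub1 peak (y axis, %) in 4 classes of ESC RING1B peak (x axis) and 4 crypt lists (colours). Points are 1 library each and bars are exact 95% intervals over peaks. The class at the left, the regions described here, runs from 19.1% in Villin KO to 39.9% in AhCre KO.

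Most marked regions carried H2AK119ub1 with no WT crypt RING1B peak in the same stretch, which the rule favours. Of the AhCre KO H2AK119ub1 overlaps, 43 of 742 (5.80%) were with a mark peak that also held an AhCre or Villin WT RING1B peak, and of the AhCre WT overlaps 35 of 632 (5.54%). In Villin KO it was 7 of 355 (1.97%) and in Villin WT 13 of 384 (3.39%). In the PCGF6-free class with crypt RING1B these shares were 95.8%, 95%, 96.7% and 94.6% in the same list order, a contrast that the choice of regions itself favours. Peaks with ESC PCGF6 and no WT crypt RING1B had still lower shares, at 1.17%, 1.32%, 0.389% and 0.306%, so this was not particular to the regions. The mark covered a median of 88.0% of a marked region in AhCre KO, 86.9% in AhCre WT, 65.3% in Villin KO and 65.0% in Villin WT. Its median score there was 17.6, 16.6, 12.8 and 13.6 in that order, against 22.3, 20.2, 14.7 and 15.7 over all ESC RING1B peaks with the mark.

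More of the regions lacked the mark in every list than did ESC RING1B peaks at large, a background that holds the peaks with WT crypt RING1B. Fewer lacked it than did peaks with ESC PCGF6 and no WT crypt RING1B, of which 66.3% had it in no list and 11.0% in all 4. The mark was in no list at 1030 regions (55.4%, 53.1 to 57.7, against 45.1% of all ESC RING1B peaks) and in all 4 at 234 (12.6%, 11.1 to 14.2, against 26.6%), with 200 in 1 list, 205 in 2 and 189 in 3. Regions marked in all 4 lists had a median ESC RING1B score of 25.3 and a median distance of 38.8 kb to WT crypt RING1B. Regions marked in none had 17.4 and 174 kb. Without chromosome X the mark was in no list at 55.5% and in all 4 at 13.0% of 1788 regions.

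Within the regions, H2AK119ub1 went with ESC RING1B strength. In AhCre KO crypts it overlapped 48.7% of the strongest quintile (score 41.0 and above) and 30.4% of the weakest quintile (score 12.2 and below). In AhCre WT crypts these shares were 40.9% and 26.1%, in Villin KO 25% and 13.8%, and in Villin WT 30.1% and 13.8%. In each of the 4 lists the intervals of the strongest and weakest quintile did not overlap. Without chromosome X the AhCre KO shares were 48.4% and 29.9%. Wider peaks have more room for an overlap, and the part of width in this was not tested.

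The mark also went with nearness to crypt RING1B. In AhCre KO crypts it overlapped 68.3% of the 60 regions within 1 kb of a WT crypt RING1B peak and 27.5% of the 939 regions beyond 100 kb. Without chromosome X these AhCre KO shares were 67.8% and 26.3%. In AhCre WT the shares were 63.3% and 21.7%, in Villin KO 35% and 11.7%, and in Villin WT 40.0% and 13.4%. Between 20 and 100 kb, where an H2AK119ub1 peak rarely held crypt RING1B too, 526 regions still had the mark at 50.2% in AhCre KO, 44.9% in AhCre WT, 23.8% in Villin KO and 25.3% in Villin WT.

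**Figure D3:**
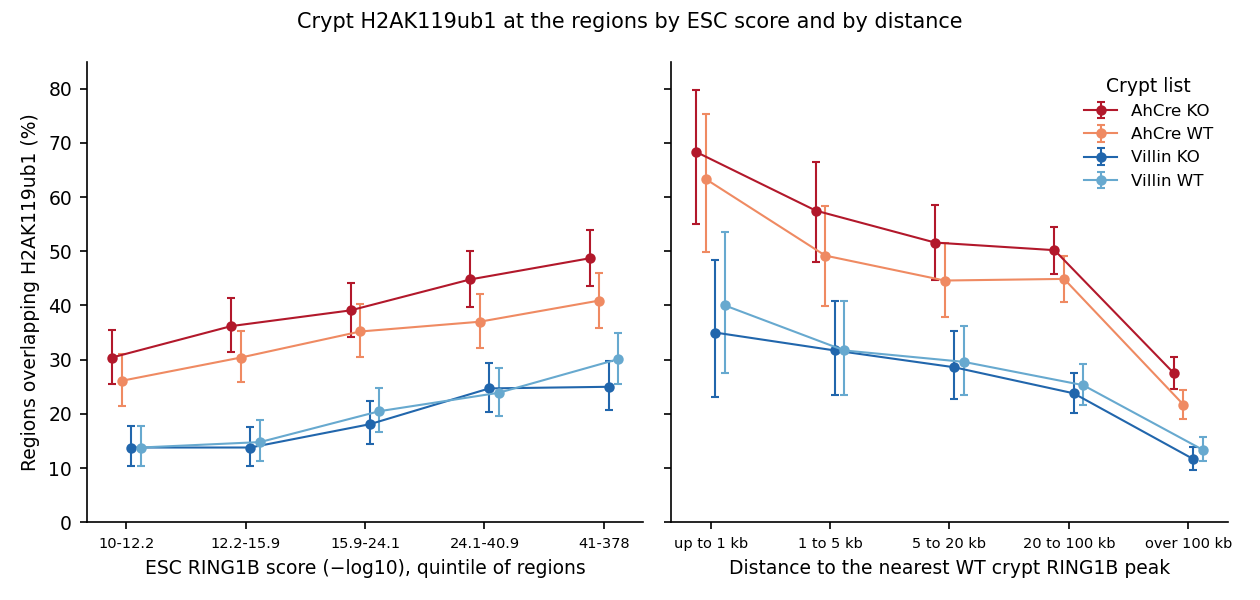
Share of the regions that overlapped crypt H2AK119ub1 (y axis, %) by quintile of ESC RING1B score (left panel, −log10) and by distance to the nearest WT crypt RING1B peak (right panel). Points are 1 library each, bars are exact 95% intervals over regions, and lines join the points of a list. In AhCre KO the share is 30.4% in the weakest and 48.7% in the strongest quintile, and 68.3% within 1 kb against 27.5% beyond 100 kb.

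Between KO and WT crypts, the share of marked regions differed little, and in opposite directions in the 2 Cre lines. In the AhCre line the mark was in KO only at 9.58% of the regions (8.28 to 11.0, against 7.68% of all ESC RING1B peaks) and in WT only at 68 regions (3.66%, against 3.77%). In the Villin line it was in KO only at 112 regions (6.03%, against 4.50%) and in WT only at 141 (7.59%, against 9.29%). The KO share was 5.92 percentage points above WT in AhCre and 1.56 points below it in Villin (−1.56). Of the AhCre KO-only regions, 30 lay on chromosome X, where the mark overlapped 33 of 70 regions in AhCre KO (47.1%) and 3 of 70 in AhCre WT (4.29%). Over all 128 ESC RING1B peaks on chromosome X the shares were alike, at 50% in AhCre KO and 10.9% in AhCre WT. Without chromosome X the AhCre counts were 148 in KO only and 68 in WT only, a difference of 4.47 points. KO and WT lists shortened to equal length gave 3.07 points in AhCre and 0.753 points in Villin, so the Villin direction turned with list length.

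Few regions changed the same way in both lines. The mark was in KO only in both lines at 21 regions (1.13%, against 0.820% of all ESC RING1B peaks) and in WT only in both at 4 (0.215%, against 0.485%), and 4 of the 21 lay on chromosome X. Those KO-only regions touched 8 genes. They were Crtc3, a CREB coactivator, the neural membrane protein gene Gpm6b, Tppp, which promotes tubulin polymerization, Pde4dip, Rtl5, Grid2ip, the calcium-binding protein gene Cib2 and Rflna. At Tppp the mark scored 26.8 in AhCre KO and 14.5 in Villin KO, with no peak in either WT list. At Crtc3 it scored 12.9 in AhCre KO and 10.3 in Villin KO, with no peak in either WT list. At the other 6 genes it scored between 10.7 and 21.4 in AhCre KO and between 10.3 and 12.6 in Villin KO. Gpm6b and Rtl5 are on chromosome X. In WT only, 1 gene was touched, the phospholipid phosphatase gene Plpp4, with scores of 11.7 in AhCre WT and 14.3 in Villin WT and no peak in either KO list.

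Other crypt factors were scarce at the regions. A KO crypt RING1B peak overlapped 15 regions in AhCre (0.807%, against 18.7% of all ESC RING1B peaks) and 47 in Villin (2.53%, against 24.9%), 58 regions in all. That background holds the peaks with WT crypt RING1B that the rule removed, so the gap follows from the choice. Peaks with ESC PCGF6 and no WT crypt RING1B had KO crypt RING1B at 0.840% in AhCre and 2.75% in Villin, close to the regions. PCGF6 overlapped 32 regions in AhCre KO (1.72%, against 11.7%) and 254 in AhCre WT (13.7%, against 35%). Here too the background holds the ESC PCGF6 peaks that the rule removed, which favours the gap. The Gata5 and Foxa1 regions were among those 254, which by the rule had no ESC PCGF6 peak, although the Foxa1 gene had one outside its region. H2AK119ub1 in AhCre WT was present at 67 of those 254 (26.4%, 21.1 to 32.3) and at 565 of the 1604 others (35.2%, 32.9 to 37.6). CTCF, an insulator protein, overlapped 161 regions in Villin KO (8.67%, against 17.8%) and 197 in Villin WT (10.6%, against 20.9%). The cohesin subunit RAD21 overlapped 107 in Villin KO (5.76%, against 12.0%) and 200 in Villin WT (10.8%, against 20.9%). The regions were narrower than all ESC RING1B peaks (median 1061 against 1388 bp), and the part of width in these gaps was not tested. In none of the 12 crypt lists outside the rule was there a peak at 794 regions (42.7%, 40.5 to 45.0), against 25.1% of all ESC RING1B peaks and 38.3% (36.0 to 40.6) of those with ESC PCGF6 and no WT crypt RING1B.

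At genes, 968 of 21887 protein-coding genes (4.42%) had a region within 1 kb of either end. A region near a gene need not lie on its promoter. Of the 728 with a promoter in the RefSeq table, 482 had a region over their own promoter. Dio3, Urad, Foxa1 and Car15 were among those that did not. Of the 968 genes, 871 had no WT crypt RING1B peak anywhere in the gene or within 1 kb, and 97 had one elsewhere in the gene. Among the 97 were Nrn1, Pde4dip, Hoxc12, Msx2, Lhx3, Isl1, Wnt10a, Ntf5, Fzd2 and Bmi1. An ESC PCGF6 peak lay elsewhere in the gene or within 1 kb at 232 of the 968, among them Dio3, Zfp536, Frem2 and Foxa1. The rule thus applies to the region and not to the whole gene. At 520 genes the strongest region carried H2AK119ub1 in no crypt list, and at 140 in all 4. Genes with the strongest regions are named by score, and the list holds regulators of development, neural signalling and adhesion.

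The 3 highest regions at genes were those of Pax1, Dio3 and Gata5. Pax1, a paired-box factor of the sclerotome and thymus, had a region of score 378 and 7989 bp (chr2:147360756-147368744), and H2AK119ub1 was called in none of the 4 crypt lists. Dio3, the deiodinase that inactivates thyroid hormone, had a region of score 328 and 2089 bp (chr12:110276154-110278242) that did not overlap its own promoter. Its H2AK119ub1 scores were 32.0 in AhCre KO, 18.4 in AhCre WT, 13.4 in Villin KO and 11.5 in Villin WT. Gata5, a GATA factor of heart and gut, had a region of score 301 (chr2:180333035-180336553) with H2AK119ub1 in no list, and AhCre WT PCGF6 overlapped it.

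Among the 20 genes with the highest scores, H2AK119ub1 was in none of the 4 crypt lists at 12, in all 4 at 3, and in 1 or 2 at 5. Over all 968 genes with a region, 53.7% were unmarked, so the top of the list was close to the rest in this. After Pax1 and Gata5 the unmarked genes were Urad, an enzyme of uric acid breakdown and the neighbour of the intestinal regulator Cdx2, Tfap2b, an AP-2 factor of neural crest and kidney, and Zfp536, a neural zinc finger repressor. They had ESC RING1B scores of 268, 259 and 253. Next came the neuronal sorting receptor gene Sorcs3 (240), the neurotrophin receptor gene Ntrk3 (237), Fam155a (236), Frem2 of the epithelial basement membrane (232) and Gfra2, a co-receptor for ligands of the GDNF family (231). Ajap1 (195) and the synaptic organizer gene Cbln2 (194) completed the 12.

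Marked genes were fewer and included secreted signals. Nbl1, a secreted BMP antagonist, had a region of score 194 and mark scores of 22.4 in AhCre KO, 19.9 in AhCre WT, 11.2 in Villin KO and 15.8 in Villin WT. Rspo1, an R-spondin that amplifies Wnt signals, had a region of score 152 and mark scores of 11.5, 12.2, 15.0 and 10.2 in that order. The adenosine receptor gene Adora1 (score 150) had stronger marks, at 48.8 in AhCre KO, 35.9 in AhCre WT, 17 in Villin KO and 19.2 in Villin WT. Erfl, Nptxr, Nhs and Car15 were also marked in all 4 lists. Gdnf, the trophic factor of enteric neurons, differed between lists, with scores of 13.1 in AhCre KO and 20 in Villin WT and no peak in AhCre WT or Villin KO. Igsf21, Gsg1l, Adcy8 and Nrn1 were marked in 1 or 2 lists with scores between 10.0 and 14.6.

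**Figure D4:**
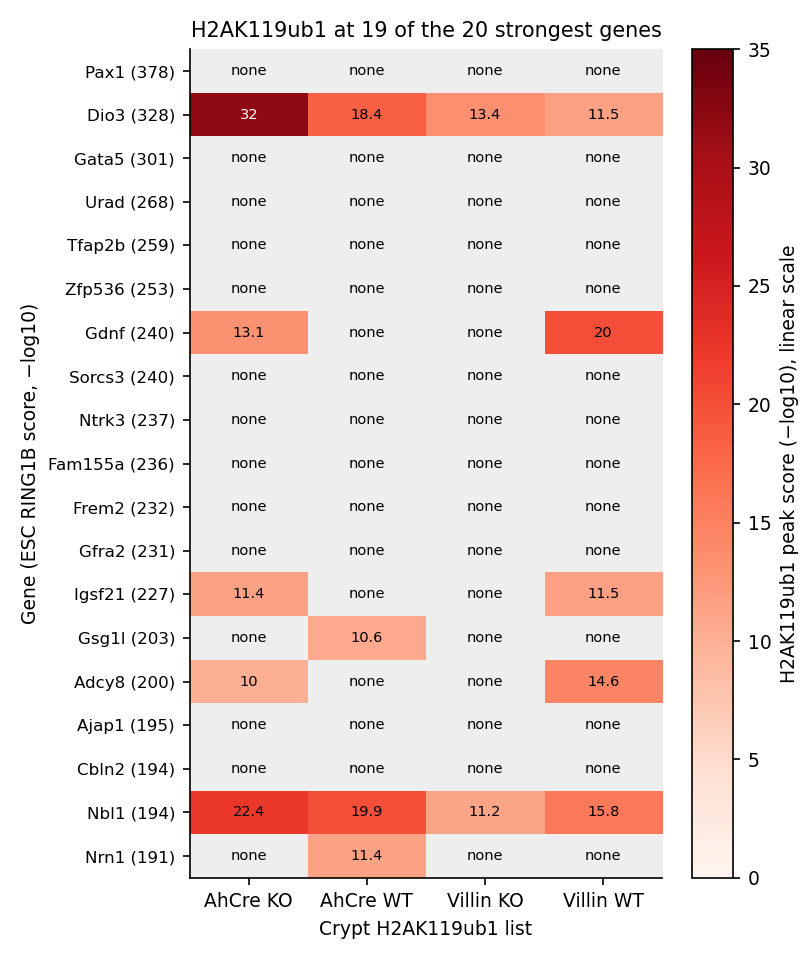
H2AK119ub1 peak scores (colour and number, −log10, 1 library per column) in 4 crypt lists (x axis) at the regions of 19 of the 20 genes with the highest ESC RING1B scores (y axis, ESC score in parentheses). Grey cells marked none have no H2AK119ub1 peak of score 10 or more. Dio3 and Nbl1 are marked in all 4 columns and 12 genes in none.

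The gene lists are read against 2 backgrounds, the 4.42% of all genes and the 24.8% of the 3906 genes with any ESC RING1B peak within 1 kb of an end that had one of the regions. Transcription factors, the classic Polycomb targets, lay above the first and below the second. In the factor lists, 35 of 408 genes (8.58%) had a region, which was 11.7% of the 299 with any ESC RING1B peak. Of 140 homeobox and Pax genes outside the Hox clusters, 12 had one (9.68% of those with any ESC RING1B peak), while 94 had a peak with both ESC PCGF6 and WT crypt RING1B. Of the 39 Hox genes, 2 had one, Hoxc13 and Hoxc12, both of low score (14.3 and 11.9) and marked in 3 and 4 crypt lists. Members of that list with a region included Pax1, Irx6 (score 145), Pax8 (139), Msx2 (67.9), Lhx3 (28.8) and Isl1 (24.1). Lhx3, a pituitary and motor neuron factor, was marked in all 4 lists, with scores of 31.0 in AhCre KO, 21.5 in AhCre WT, 10.8 in Villin KO and 14.2 in Villin WT, and Irx6, Pax8 and Isl1 in none. Nuclear receptors had the highest share among the factor lists, 8 of 47 genes (17%), and at 40.0% of those with any ESC RING1B peak they were above both backgrounds. Among them, Rxra (score 28.3), Rxrg (26.3), the vitamin D receptor gene Vdr (21.0), Nr2f6, Nr2f2 and Rora had no mark in any list. Nr4a2 (11.1) had it in both AhCre lists, at 13.4 in KO and 16.6 in WT. Only 4 of the 8 had no WT crypt RING1B peak in the gene or within 1 kb. Nr2f6, Nr2f2, Rora and Nr4a2 had one outside the region.

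Ligands and receptors of signalling pathways were above the 4.42% of all genes, but lay on both sides of the 24.8% among genes with any ESC RING1B peak. Among hedgehog, PDGF, VEGF, EGF-family and neurotrophin ligands, 7 of 30 genes (23.3%) had a region, or 41.2% of those with any ESC RING1B peak. They included Gdnf, the neuregulin gene Nrg3 (score 135, no mark), Ntf5, Areg, Ntf3 and Ereg. Ntf5 was marked in all 4 lists, with 26.1 in AhCre KO, 31.4 in AhCre WT, 21.8 in Villin KO and 20.3 in Villin WT. Areg and Ereg encode EGF receptor ligands of the intestine, with weak regions (15.9 and 12.4). Of 19 Wnt genes, 18 had an ESC RING1B peak and 3 a region (16.7% of the 18), and all 3 were marked somewhere. Wnt10a (score 55.9) had marks of 39.5 in AhCre KO, 23.2 in AhCre WT, 15.3 in Villin KO and 25.3 in Villin WT. Wnt4 (41.6) was marked in 3 lists and Wnt8a (38.3) in 2. Of 22 Fgf genes, Fgf5 (170, marked in AhCre KO at 13.7 and Villin WT at 13.6), Fgf2 and Fgf17 had one. Secreted Wnt and BMP antagonists had 4 of 27, Nbl1, Dkk2, Chrdl2 and Dkk1. Receptors of these pathways had 10 of 53 (26.3% of those with any ESC RING1B peak), led by Ntrk3 (237), with Acvrl1 (50.3), Lgr6 (22.6) and Fzd2 (10.4) further down. TGF-beta superfamily ligands had 3 of 33 (15.0% of those with any ESC RING1B peak) and axon guidance genes 9 of 75 (18.8%).

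Genes of neuronal excitability were above both backgrounds, with regions at 32.8%, 33.8% and 30.8% of the genes with any ESC RING1B peak in the 3 lists that follow. This was not particular to the regions. Peaks with ESC PCGF6 and no WT crypt RING1B were at 22, 32 and 17 genes of these lists, against 19, 27 and 8 with a region. The 30.8% rests on 8 of 26 genes. Neurotransmitter and peptide G protein-coupled receptors had a region at 19 of 86 genes (22.1%), and 13 of the 19 had no mark in any list. Unmarked were the dopamine receptor gene Drd5 (score 107) and the serotonin receptor genes Htr1a (106) and Htr7 (86.0). Marked in all 4 lists were Adora1 and the somatostatin receptor gene Sstr5 (29.3), and Sstr5 scored 23.3 in AhCre KO, 13.9 in AhCre WT, 18.3 in Villin KO and 18.3 in Villin WT. Potassium, sodium, calcium and TRP channels had 27 of 162 (16.7%), of which 6 were marked in all 4 lists and 15 in none. Kcnb2 (score 54.3), Kcnh5 (30.5) and Kcnj2 (29.7) had no mark. Transmitter-gated channels had 8 of 60 (13.3%), with the glutamate receptor gene Grik1 (76.3) unmarked and Grik3 (31.5) and the nicotinic receptor gene Chrna3 (43.6) marked in 3 lists each.

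Adhesion genes had regions with little of the mark. Of 68 cadherins, neurexins, neuroligins, Slitrk and contactin genes, 12 had a region (17.6%) and 11 of the 12 had H2AK119ub1 in no list, against 53.7% of all genes with a region. Cdh11 (score 180), Cdh8 (174) and the neuroligin gene Nlgn1 (116) led them. The exception, L1cam on chromosome X, was marked in AhCre KO alone at 13.7. Clustered protocadherins, which give neurons a surface identity, had a region at 18 of 57 genes (31.6%), the highest share of the 35 lists, and 0 of the 18 were marked. Their scores ranged from 80.4 at Pcdha12 to 10.2 at Pcdha2. A further 10 of the 57 had a peak with ESC PCGF6 but no WT crypt RING1B, and 1 had both. These genes stand in a row on chromosome 18, so they are not independent cases.

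Housekeeping, pluripotency and germline genes had none of the regions. Few of the first 2 kinds had any ESC RING1B peak that could have been one, with 0 of 76 cytosolic ribosomal protein genes, 2 of 53 E2F targets of replication and the cell cycle and 3 of 24 pluripotency genes. Of 73 germline and meiosis genes, 28 had an ESC RING1B peak, and 23 had one with ESC PCGF6 and no WT crypt RING1B, a class the rule sets apart. Zinc finger genes named Zfp had 8 of 394 (2.03%) and solute carriers 27 of 375 (7.20%).

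Among genes of intestinal cell types, the regions included regulators of differentiation. Enteroendocrine genes had 4 of 26 (15.4%), Foxa1, Neurog3 (score 118), Isl1 (24.1) and Neurod1 (21.1). Neurog3, which commits crypt progenitors to the endocrine fate, had H2AK119ub1 of 21.6 in AhCre KO, 17.4 in AhCre WT and 14.3 in Villin KO, with no peak in Villin WT. Foxa1, a forkhead factor whose region was among the 10 widest at 7073 bp, Isl1 and Neurod1 had none in any list. The enterocyte list had 4 of 38 (10.5%), Gata5, the brush border cadherin gene Cdhr2 (61.2), the cadherin-related gene Cdhr1 (13.0) and the glucose transporter gene Slc5a1 (26.2). Cdhr2 was marked at 14.5 in AhCre KO and 12.1 in AhCre WT but in neither Villin list. Tuft cell genes had 3 of 27, Dclk1 (27.4), Alox5 (13.6) and Alox5ap (11.4), of which Alox5 was marked in AhCre KO alone at 10.7. Stem cell markers had 2 of 20, Ephb2 and Bmi1, goblet and Paneth genes 1 of 53 (Creb3l1), and mesenchymal and endothelial markers 0 of 22. Among genes with any ESC RING1B peak, regions were at 28.6% of 14 enteroendocrine, 40.0% of 10 enterocyte and 33.3% of 9 tuft genes. They were at 2 of 8 stem cell, 1 of 5 goblet and Paneth, and 0 of 6 mesenchymal and endothelial genes. The background was 24.8%, and with so few genes a departure from it was not tested. Of the 14 enteroendocrine genes, 10 had a peak with both ESC PCGF6 and WT crypt RING1B.

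**Figure D5:**
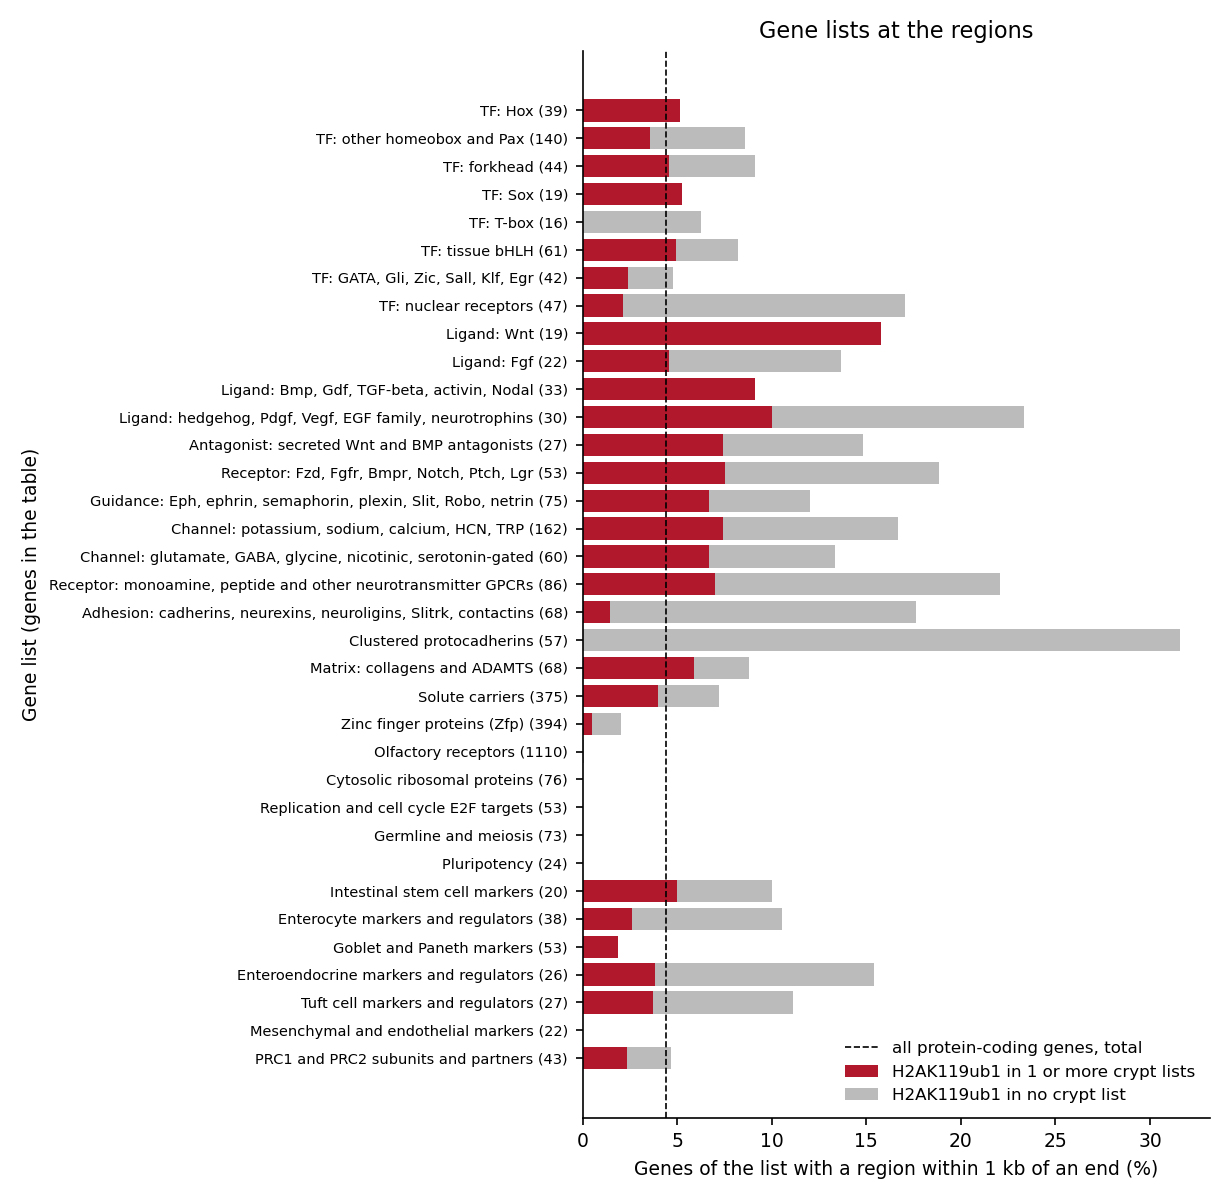
Share of genes with a region within 1 kb of either end (x axis, %) in 35 gene lists (y axis, number of genes in parentheses). Red is the part whose strongest region had H2AK119ub1 in 1 or more crypt lists, grey the part with it in none, and the dashed line is the 4.42% of all protein-coding genes. Clustered protocadherins reach 31.6% with no red part.

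Promoter sequences were read for features the choice had not used. Genes with a region had 971 protein-coding promoters in the RefSeq table, with a median of 17 CpG per 300 bases (interquartile range 8 to 27) and 62.0% GC. All 21263 promoters had a median of 13 CpG and 56.3% GC. The medians were 19 CpG for genes of the PCGF6-free class with crypt RING1B, 19.5 for the class with ESC PCGF6 alone and 22 for the class with both. Where the strongest region was marked in all 4 crypt lists, 130 promoters had a median of 20.5 CpG (interquartile range 11 to 30), and where it was marked in none, 509 had 16 (8 to 27), ranges that overlap widely.

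Motifs of the DNA-binding partners of PCGF6 were searched on both strands in the same promoters. The E-box CACGTG, bound by MAX and its partners, was in 52 of 971 promoters (5.36%, 4.03 to 6.96), against 7.84% of all promoters. It was in 11.0% of promoters in the class with ESC PCGF6 alone and in 11.9% of the class with both, and in 5.62% of the PCGF6-free class with crypt RING1B. The interval of the regions' genes lay below the shares of both PCGF6 classes, a gap favoured by a rule that removed ESC PCGF6 peaks. No test of this gap was made. The same interval also lay below the share of all promoters, but this did not hold for promoters that a region itself overlapped. The E2F motif TTCCCGC was in 6.39% of promoters of genes with a region (4.93 to 8.11), against 5.95% of all. Of all 21263 promoters, 639 (3.01%) were overlapped by a region, and in these CACGTG was at 6.10% (4.38 to 8.25), an interval that includes the 7.84% of all promoters. The T-box half-site TCACACCT was in 4 of 971 (0.412%, 0.112 to 1.05), against 1.15% of all promoters. Of the 4 promoters printed above, Gata5 held CACGTG, and none held either of the other motifs. A match is a string of letters and does not show binding.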

How the data were processed

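Per the labels, crosslinked chromatin was profiled by ChIP-seq and each deposited list came from 1 library, with the WT input named as reference. MACS2 2.1.1 and the Bowtie versions 1.1.2 and 1.2.2 stand in the submitters' processing notes, as do mm10, hg38 and dm6, with no role stated for any. Deposited scores are the authors' −log10 of a p or q value per peak, and which of them was not stated. Read depth and spike counts were not analysed here.

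Peaks on chromosomes 1 to 19, X and Y were kept (21 were left out) and starts made 1-based. An overlap was 1 bp or more. The RefSeq table (GRCm38.p6) lists 21887 protein-coding genes without transcript starts, and a region within 1 kb of either end was assigned to a gene. Promoter sequences are from the RefSeq table of the same build, for 17492 of those genes, 728 of the 968 with a region. Shares have exact Clopper-Pearson 95% intervals. With 1 library per group there were no tests between groups. The regions, the 35 gene lists and the naming rule were set with earlier results of these data known. The rule names the 20 highest ESC RING1B scores, the 10 highest with H2AK119ub1 in all 4 lists, in none, and in KO only or WT only in both lines, the 10 widest regions, and members of the lists. Promoters on chromosome 18 are not printed, and some genes that the rule names are not reported here. The alternatives without chromosome X and with 20 score bins were added after seeing the data. Overlaps were checked against bedtools (0 of 15 list pairs differed), and all 200 planted regions were found. The tools were bedtools 2.31.1, matplotlib 3.10.9, scipy 1.17.1, pandas 2.3.3, numpy 2.4.6 and Python 3.11.15.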

Additional observations from a re-analysis of the deposited data

Results flagged for a closer look

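The difference between KO and WT in the share of regions with H2AK119ub1 had opposite signs in the 2 Cre lines. It was 5.92 percentage points in AhCre (39.9% in KO, 34% in WT) and −1.56 points in Villin (19.1% in KO, 20.7% in WT). Over all ESC RING1B peaks the signs were the same, with 49.9% in KO and 46% in WT in AhCre, and 31.7% in KO and 36.5% in WT in Villin. With KO and WT lists of equal length the Villin difference at the regions turned to 0.753 points. The difference between the lines was not tested, because each list is 1 library. The AhCre KO list is also the one with 1950 peaks on chromosome X, against 29 in AhCre WT. Without chromosome X the differences were 4.47 points in AhCre and −1.45 in Villin. The sex of the mice behind each H2AK119ub1 library was not given in the sources used here, and its part in the result was not tested.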

How the results depend on the processing

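No paired analysis was possible because each group had 1 library, so no replicate could be left out either. The names of the WT crypt RING1B lists carry replicate numbers, but the series holds 1 list of each. The count of regions fell to 881 at an ESC RING1B score of 20 or more and to 296 at 50 or more, and was 2944 when only a list covering at least 50% of a peak removed it. H2AK119ub1 shares, in the order AhCre KO, AhCre WT, Villin KO and Villin WT, were then 45.6%, 38.1%, 23.4% and 26.1% at score 20, 47.3%, 38.9%, 26% and 30.7% at score 50, and 47.2%, 41.4%, 26.6% and 29.8% under the 50% rule. With the AhCre WT list alone as the crypt criterion they were 43.2%, 37.4%, 22.0% and 24.4%. A distance of 5 kb from any listed peak moved AhCre WT to 31.7%. Requiring the mark to cover 50% of a region gave 32.3%, 27.7%, 12.4% and 12.9%. A region centre inside the mark gave 31.3%, 26.9%, 12.7% and 14.1%, and mark scores of 15 or more 26.2%, 20.6%, 5.54% and 6.89%. With every list shortened to its 5492 strongest peaks the shares were 23.2%, 20.7%, 19.1% and 18.4%. At mark scores of 15 or more the counts were 45 in AhCre WT only, 43 in Villin KO only and 68 in Villin WT only. With KO and WT lists of equal length the KO minus WT difference was 3.07 points in AhCre and turned to 0.753 points in Villin. Without chromosome X as well it was 3.41 points in AhCre and turned to 0.783 in Villin. Of the other factors, PCGF6 moved to 0.108% in AhCre KO at score 20, and in AhCre WT to 10.7% by region centre and 3.98% at score 20. KO RING1B moved to 0% in both lines at score 20, and to 1.35% in Villin by centre. CTCF moved to 3.55% by centre and 7.21% at score 20 in KO, and to 4.41% and 8.45% in WT. RAD21 moved to 3.01% by centre and 2.53% at score 20 in KO, and to 6.78% and 4.95% in WT. The cause of these moves was not tested. The other 58 recomputed values of these kinds stayed within the counting interval of the value reported, or within 1.5 times a count. Gene counts were 1398 (6.39% of genes) in bodies and 1361 (6.22%) within 5 kb. Of 70 recomputed list counts, 23 moved by more than 1.5 times, among them clustered protocadherins, with 38 of 57 in gene bodies. The depth of each library is unknown, and a missing peak can reflect depth.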

Other observations

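Away from gene ends, 3 of the 6 strongest regions inside genes and 0 of the 6 strongest outside genes had H2AK119ub1 in all 4 crypt lists. These were chosen after their values were seen, as the 6 highest ESC RING1B scores inside genes and the 6 highest outside them. Inside genes, Pth1r, which encodes the parathyroid hormone receptor, had a region of score 237 and 5534 bp. Its H2AK119ub1 scores were 45.8 in AhCre KO, 45.0 in AhCre WT, 15.8 in Villin KO and 16.9 in Villin WT. Psd (score 182) and Nfix, a nuclear factor I gene (score 161), were also marked in all 4 lists. At Nfix the mark scored 32.6 in AhCre KO, 23.6 in AhCre WT, 13.1 in Villin KO and 13.5 in Villin WT. Ntng1, a netrin-G gene (score 236), Caln1 (230) and Trim2 (160) were marked in none.

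Outside genes, the highest region scored 251 and lay 55.4 kb from Ttc17, with a mark of 12.2 in AhCre KO alone. The next was 3.62 kb from the zinc finger gene Zfp503 (score 183, a mark of 10.6 in AhCre WT alone). Others were nearest to the forkhead gene Foxd2 (62.1 kb), Hoxc4 (48.8 kb), the homeobox gene Irx5 (98.4 kb) and Id2 (3.61 kb). Those near Foxd2, Irx5 and Id2 had no mark in any list, and the one near Hoxc4 had a mark of 10.1 in Villin KO alone. The nearest gene is given by position only.

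By position, the mark was least frequent outside genes in all 4 lists. It overlapped 37.4% of the 340 regions outside genes in AhCre KO, 26.2% in AhCre WT, 13.8% in Villin KO and 16.5% in Villin WT. At the 935 regions at gene ends these shares were 41.7%, 36.1%, 20.2% and 24.0% in the same list order, and at the 583 inside genes 38.6%, 35.2%, 20.4% and 17.8%. The intervals outside genes and at gene ends overlapped in AhCre KO (32.2 to 42.7 against 38.5 to 44.9) and narrowly in Villin KO (10.3 to 18 against 17.7 to 22.9). Against regions inside genes, the intervals outside genes overlapped in AhCre KO (34.6 to 42.7 inside), Villin KO (17.2 to 23.9 inside) and Villin WT (12.7 to 20.8 against 14.8 to 21.2). In AhCre WT they did not (21.6 to 31.2 against 31.3 to 39.2). Without chromosome X the AhCre KO shares were 36.5% outside genes, 41.6% at gene ends and 38.5% inside genes.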
